A study of Mus musculus with 8 samples.

Results

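Accessible regions of LSK cells that lie in exons, in 5′ or 3′ untranslated regions (UTRs) or just downstream of genes were compared between WT and Dido1∆E16 mice. The members are all MACS2 peaks, from 4 Omni-ATAC-seq libraries, that the authors' annotation places in an exon, a 5′ UTR, a 3′ UTR or the 3 kb downstream of a gene. They numbered 8973 of 114628 peaks. Overlapping peaks of the 4 libraries were merged into 5823 regions, of 60768 regions of all classes. Of these, 3086 were exonic, 1096 lay in a 3′ UTR, 835 in a 5′ UTR and 806 downstream, and 150 joined peaks of more than 1 class.

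LSK cells are the lin- Sca1+ cKit+ cells of the bone marrow, the fraction that holds the haematopoietic stem cells and multipotent progenitors. WT animals were Dido1 flE16/+;R26R-EYFP;iCre Vav1 littermates, and Dido1∆E16 animals were Dido1 flE16/∆E16;R26R-EYFP;iCre Vav1. Both groups therefore carry a floxed exon 16, the EYFP reporter and a Cre that the Vav1 promoter drives in blood cells, on a C57BL/6 background, and the study's mice were 6 to 10 weeks old. The deletion of exon 16 removes the C terminus of Dido3, the longest product of Dido1. Each genotype has 2 libraries, which the study's text calls biological replicates, although the labels tie none of them to an animal.

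In ATAC-seq a transposase cuts DNA that is not wrapped in nucleosomes, and clusters of cuts are called as peaks. In each of these libraries promoter peaks had the highest median score of all classes, although the strongest single peak was intergenic. An exon or UTR can be accessible because it lies beside a start site, because an enhancer or a CTCF site falls inside it, or because a second start site is used there. CTCF is a zinc finger protein that binds DNA and anchors chromatin loops. In the antigen receptor loci each V segment is itself an exon. It ends in a recombination signal, a heptamer and a nonamer separated by a spacer, at which the RAG recombinase cuts when a lymphocyte progenitor joins V to D and J segments.

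Of the 5823 member regions, 99 lay in such V segments, and their sequences show what the peaks cover. In GRCm38, a match to the CTCF motif lay just past the end of V segments of the Ighv5, Ighv2 and Ighv4 families. These runs of 30 bases from the reference genome are read along the strand of the gene, and capitals mark the match:
Ighv5-2, chr12:113578425-113578454, minus strand: catccaggaCCAGCAGGGGGCgcggagagc
Ighv2-3, chr12:113611103-113611132, minus strand: tgctcacaaCCAGCAGGGGGCgctgaggac
Ighv2-6, chr12:113716589-113716618, minus strand: tgctcacaaCCAGCAGGGGGCgctgaggac
Ighv5-17, chr12:113859070-113859099, minus strand: cacttgggaCCAGCAGGGGGCgctgagaga
Ighv4-1, chr12:113948201-113948230, minus strand: cgctcacaaCCACCAGGGGGCgatgaaaac
The runs were chosen by their match to the motif, so their centres are alike by construction. The flanks differ between Ighv5-2 and Ighv5-17 and are the same in Ighv2-3 and Ighv2-6.

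In the Ighv1 family, which fills the far part of the locus, many regions covered the recombination signal, and 1 region held a CTCF match. The next runs show the last 8 bases of the segment, the heptamer CACAGTG in capitals and the start of the spacer, with Trbv1 of the T cell receptor beta locus and Ighv2-6, whose region holds both kinds of match:
Ighv1-53, chr12:115158381-115158410, minus strand: gtgcaagaCACAGTGttgcaaccacatcct
Ighv1-59, chr12:115335060-115335089, minus strand: gtgcaagaCACAGTGttgcaaccacatcct
Ighv1-74, chr12:115802626-115802655, minus strand: gtgcaataCACAGTGttgtaaccacatcct
Ighv2-6, chr12:113716648-113716677, minus strand: gccagacaCACAGTGtgggaagtccaatgt
Trbv1, chr6:40891878-40891907, plus strand: agtgcagaCACAGTGgtaaactctgcaggc
A CTCF match also lay in regions outside these loci that had a peak in both WT libraries and in no Dido1∆E16 library, such as the 5′ UTR of the olfactory receptor gene Olfr701 and an exon of Klf4, which encodes a Krüppel-like transcription factor:
Olfr701, chr7:106815956-106815985, minus strand: gaagctaaaCCACTAGGGGGCatttctgta
Klf4, chr4:55530441-55530470, minus strand: cagcctcagCCGCCAGGTGGCgggctgatg

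The libraries differed in depth and in the number of peaks. The tag totals were 10249256 (WT replicate 1), 52050898 (WT replicate 2), 22533077 (Dido1∆E16 replicate 1) and 44633938 (Dido1∆E16 replicate 2), and the numbers of MACS2 peaks, in this order, were 27352, 57739, 13208 and 16329. WT replicate 1, with the fewest tags, thus had more peaks than either Dido1∆E16 library. Of 8 LSK markers, 4 (Kit, Cd34, Flt3 and Meis1) had a promoter peak in all 4 libraries, Gata2 and Lmo2 had one in 1 library each, and Ly6a, the gene of Sca1, had none. Of the 14 markers of B, T and NK, myeloid and erythroid cells, none had a promoter peak in all 4 libraries, and 10 had none in any. Dido1 itself had promoter peaks in all 4 libraries. The only member region assigned to it was exon 16 of 16, the exon that the mutation removes, at chr2:180660829-180662088. WT replicate 2 had a peak of score 1153 there, the second highest of all its peaks, and neither WT replicate 1 nor the Dido1∆E16 libraries had a peak in that exon. Nearby, WT replicate 1 had a downstream peak of score 37 at chr2:180657481-180657680, assigned to Tcfl5 by the nearest start site. The WT libraries thus stood apart from each other at the targeted exon, and what set the peak of WT replicate 2 was not tested.

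Exon, UTR and downstream peaks made up 7.58% of the peaks of WT replicate 1 (95% Wilson interval 7.27% to 7.90%) and 8.74% of those of WT replicate 2 (8.52% to 8.98%). In Dido1∆E16 replicates 1 and 2 they made up 6.18% (5.78% to 6.60%) and 6.34% (5.98% to 6.73%). These intervals cover counting error only. The groups did not overlap, and the difference of -1.90 percentage points has a two-sided exact permutation p of 0.333, which is the smallest that 2 against 2 libraries can give. The sign of this difference depended on how peaks were counted. When every library was cut to its 13208 top-scoring peaks, Dido1∆E16 had the higher share by 0.220 points, and by 0.435 points with HOMER peaks.

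The classes did not move alike. The 5′ UTR share was 1.02% ± 0.045 in WT and 1.30% ± 0.11 in Dido1∆E16 libraries (mean ± SD, n = 2), so it was the higher one in Dido1∆E16. The 3′ UTR share was 1.58% ± 0.28 against 0.825% ± 0.063, the exon share 4.33% ± 0.45 against 3.43% ± 0.057, and the downstream share 1.23% ± 0.13 against 0.702% ± 0.11. No class overlapped between the genotypes, and each test again gave an exact permutation p of 0.333.

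**Figure D1:**
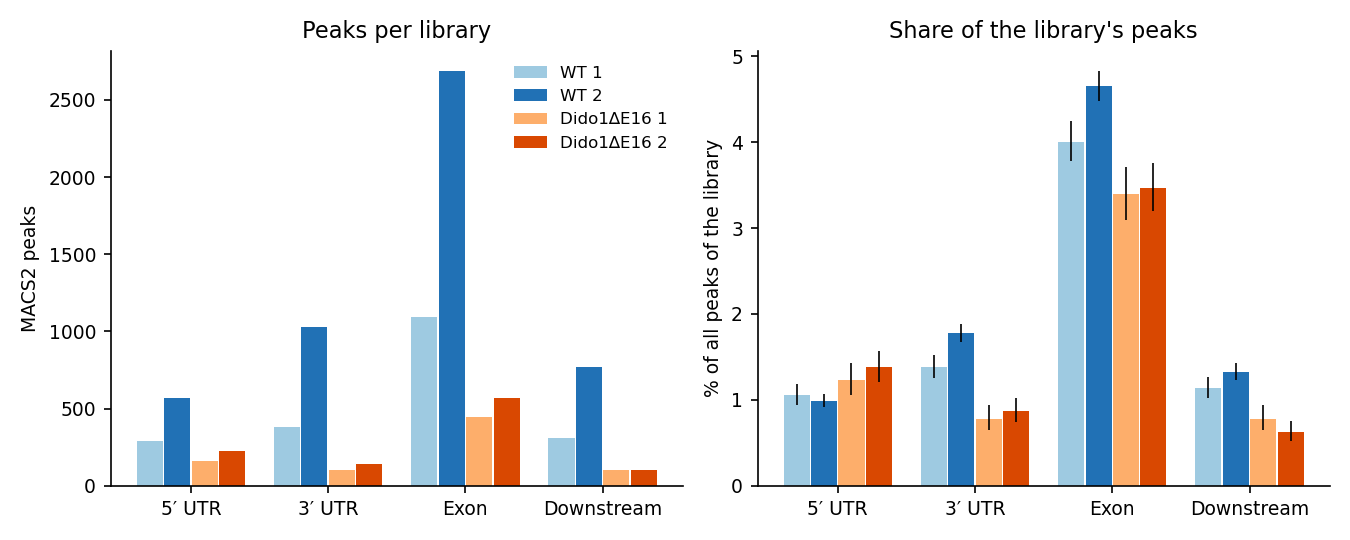
Number of MACS2 peaks (left) and their share of all peaks of the library in % (right), for each class and library. Error bars on the right are 95% Wilson intervals, which cover counting error only. The WT libraries had more peaks in every class shown, and among these classes the Dido1∆E16 libraries had the higher share only in the 5′ UTR class.

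Members of the Dido1∆E16 libraries lay nearer to start sites. The share within 1 kb of the nearest annotated start site was 16.3% and 9.69% for the WT pair and 24.4% and 27.1% for the Dido1∆E16 pair. The same held within exons. First or single exons of a transcript took 18.2% and 13.0% of the exon peaks of WT replicate 1 and 12.4% and 11.9% of those of WT replicate 2, against 26.8% and 18.97% in Dido1∆E16 replicate 1 and 25.9% and 16.9% in replicate 2. For internal exons the shares were 54.3% and 63.2% in WT against 42.0% and 44.1% in Dido1∆E16. Downstream peaks were spread evenly over the kilobases after the gene, with 34.7% and 35.4% in the nearest kilobase in WT against 32.0% and 31.4% in Dido1∆E16. WT replicate 2, the library with most peaks, had the lowest share within 1 kb of a start site, and WT replicate 1 the next. The shares in this paragraph were not compared at equal numbers of peaks.

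The annotated class is a coarse label. In GENCODE, 48.2% of the bases of the regions were exonic, 22.3% were coding and 81.1% lay within a gene, and 71.4% of the regions touched an exon of a protein-coding gene. Coding bases made up 28.8% of the exon class, and UTR bases 30.3% and 54.9% of the 5′ and 3′ UTR classes. Between 22.4% and 32.8% of the exon peaks of a library were assigned to exons of transcripts without a gene number. The gene named beside a region is the one with the nearest start site. The exon, UTR or gene end that gives the class can therefore belong to another gene.

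Of 2384 regions with a peak in both WT libraries, 1175 (49.3%) had no peak of any class in either Dido1∆E16 library (WT-only), 636 had one in 1 and 573 in both. In the other direction, 7 of 629 regions with a peak in both Dido1∆E16 libraries (1.11%) had none in a WT library (Dido1∆E16-only). Over all classes these shares were 43.1% and 1.01%, close to those of the exon, UTR and downstream regions. Libraries of the same genotype also differed. Of the regions of WT replicate 2, 57.4% had no peak in WT replicate 1, and 78.8% to 82.6% had none in a Dido1∆E16 library. Of those of WT replicate 1, 4.37% had none in WT replicate 2 and 60.6% to 67.7% had none in a Dido1∆E16 library, while 51.1% of those of Dido1∆E16 replicate 2 had none in Dido1∆E16 replicate 1. When each library gave its 13208 best-scoring peaks, 98 of 590 regions (16.6%) were WT-only and 96 of 513 (18.7%) were Dido1∆E16-only. Equal numbers of peaks hold these counts near each other by construction, and for Dido1∆E16 replicate 1 they are its whole list. With HOMER peaks, whose numbers were not made equal, 725 of 2293 regions were WT-only and 5 of 895 Dido1∆E16-only. Fewer open cells and less signal per cell cannot be told apart in these libraries.

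The share of WT-only regions differed between the classes. It was 35.2% in 5′ UTRs (156 of 443), 49.4% in exons (622 of 1259), 54.7% in 3′ UTRs (214 of 391) and 62.9% downstream (183 of 291). Among exons, first exons had 37.6% and single exons 35.9%, while internal and last exons had 56.6% and 51.4%. Promoter regions of the same libraries had 14.8%, introns 63.7% and intergenic regions 59.6%. The 5′ UTRs and first exons therefore lay between promoters and the rest, and downstream regions were close to introns. In each of the 4 pairs of a WT and a Dido1∆E16 library, 5′ UTRs had the lowest share of WT regions without a Dido1∆E16 peak, from 45.01% to 70.3%, against 74.6% to 88.1% for downstream regions. Regions are not replicates, so no test was made over them.

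**Figure D2:**
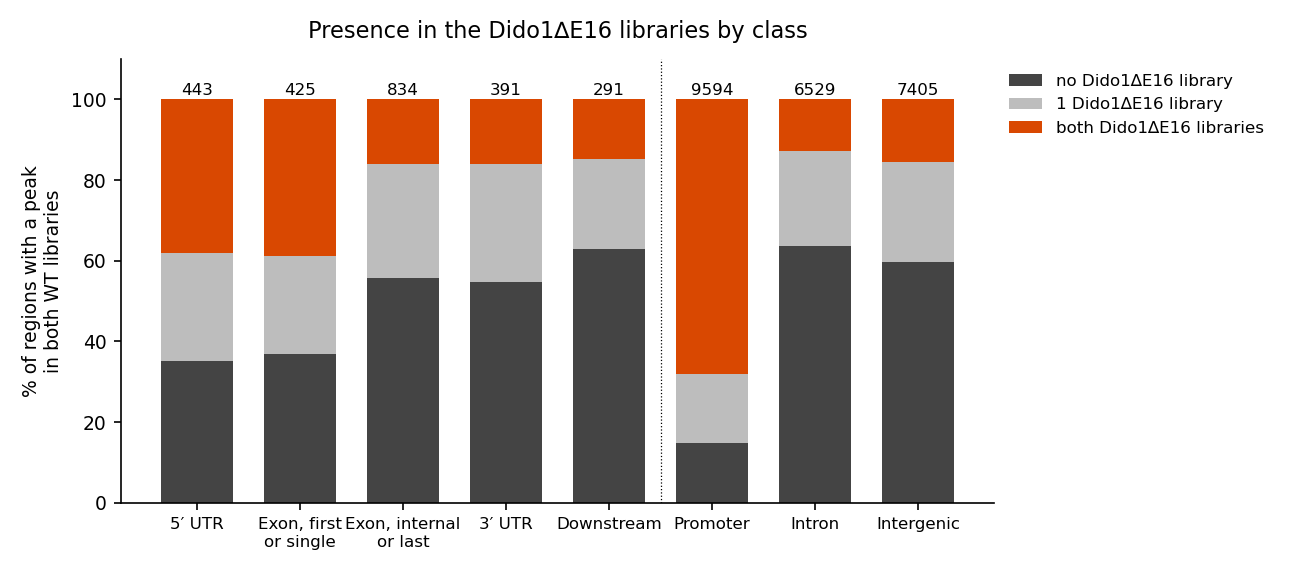
Regions with a peak in both WT libraries (number above each bar), split by the number of Dido1∆E16 libraries with a peak, in %. The classes left of the dotted line are the members, and those on the right are regions that overlap no member. First and single exons and 5′ UTRs had a peak in both Dido1∆E16 libraries more often than the other members, and promoters more often still.

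Distance to a start site ordered the regions in the same way. The WT-only share was 33.7% under 1 kb (165 of 489), 43.8% from 1 to 5 kb, 53.7% from 5 to 20 kb and 56.1% beyond 20 kb (531 of 947). The share also depended on the strength of the WT peaks. In 5 equal classes by the mean percentile of the score among all peaks of the library, it was 81.0%, 64.7%, 50.6%, 39.6% and 10.5% from the weakest to the strongest. Within every one of these classes the regions nearer than 1 kb had the lower share. In the middle class it was 23.96% near a start site (23 of 96) and 57.4% farther away (218 of 380), and in the strongest class it was 3.19% (3 of 94) and 12.3% (47 of 383). Promoters in the percentile range of the middle class had 22.01%, introns 71.3% and intergenic regions 68.6%.

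**Figure D3:**
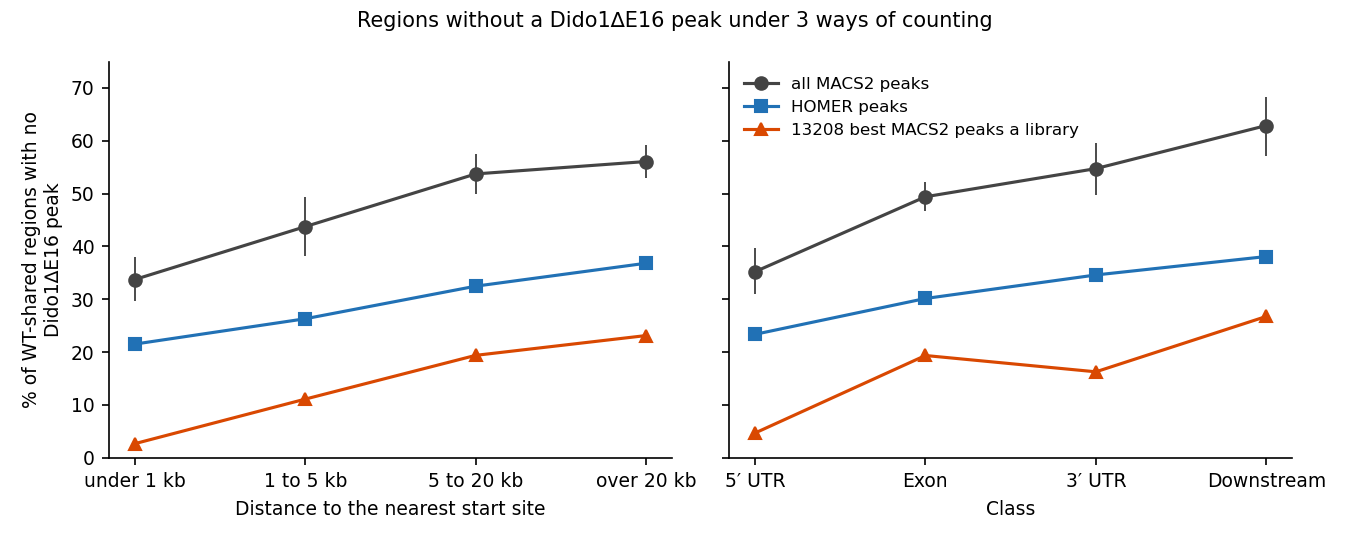
Share of regions with a peak in both WT libraries that had none in the Dido1∆E16 libraries (%), by distance to the nearest start site (left) and by class (right), counted in 3 ways. Bars on the grey points are 95% Wilson intervals. The level fell when the 13208 best-scoring peaks of each library were used, while the rise with distance was seen in all 3 ways and 5′ UTRs stayed lowest.

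The regions with the highest scores in all 4 libraries were in part copies of other sequences. The strongest exon region, chr1:24612880-24616152, had scores of 387 and 411 in WT against 383 and 386 in Dido1∆E16, and matched the mitochondrial genome over 100% of its length with 99.97% identity. The next one, chr17:39846709-39847006, lies in a gene for ribosomal RNA and scored 256 and 423 in WT against 351 and 473 in Dido1∆E16. The strongest 3′ UTR region was that of Lars2, the mitochondrial leucyl-tRNA synthetase, with 276 and 589 against 415 and 471. In all, 47 of the 573 regions with a peak in every library (8.20%) had a copy elsewhere of at least 80% of their length with at least 95% identity, against 37 of the 1175 WT-only ones (3.15%). Reads from such copies cannot be assigned to 1 place.

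The strongest 5′ UTR regions, assigned to Gm21119 (289 and 398 in WT, 198 and 184 in Dido1∆E16) and Zfp97 (175 and 421, 188 and 160), also had copies. Other strong regions were single-copy. The 5′ UTR of Clec11a, a secreted growth factor of blood progenitors, scored 179 and 362 in WT against 164 and 114 in Dido1∆E16. The 3′ UTR of Gpc6, a cell surface proteoglycan of the glypican family, scored 87 and 276 against 87 and 83. Downstream of Neu4, a sialidase, the scores were 214 and 497 in WT against 84 and 112 in Dido1∆E16. Scores of libraries of different depth are not on a common scale, and only the fit described below normalised them.

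In WT replicate 2 the WT-only regions with the highest scores were weaker than these, but in WT replicate 1 Enpep and Vmn2r47 scored above Gpc6. The WT-only ones lay in or near genes of varied function. In the 5′ UTR class they lay in Kansl1, a subunit of a histone acetyltransferase complex, with scores of 58 and 124 in WT replicates 1 and 2, in Olfr701 with 52 and 76, and in Snx14, a sorting nexin, with 49 and 165. In the 3′ UTR class they lay in Enpep, an aminopeptidase, with 96 and 140, beside Vcl, which encodes vinculin, in a region that GENCODE gives to Ap3m1, with 69 and 95, and in the sialyltransferase gene St3gal2 with 60 and 140. The exon class was led by regions assigned to Vmn2r47 (102 and 138, with 4 copies elsewhere), Ralgapa2 (79 and 125) and Tmem236 (68 and 128). Downstream regions were led by those assigned to 1500026H17Rik (78 and 104), Hpn (60 and 120), which encodes the protease hepsin, and Myo1g (64 and 91), a myosin of blood cells. The region assigned to Myo1g lay before that start site (-1780 bp). In both WT libraries the score percentiles of these WT-only regions lay between 70.4 and 93.3.

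A missing peak did not mean missing tags. The authors' lists of differential regions give tags per library for 283 of the 1175 WT-only regions, as log2 of tags scaled to a common total. Their medians were 5.77 and 5.72 in WT against 4.75 and 4.78 in Dido1∆E16. At Kansl1 the values were 5.45 and 5.27 in WT against 4.77 and 4.22 in Dido1∆E16, and at St3gal2 they were 6.72 and 6.58 against 5.01 and 5.07. The 225 listed regions with a peak in all 4 libraries had medians of 7.84 and 7.74 in WT against 6.87 and 6.76 in Dido1∆E16, a gap of the same order. The list made with Dido1∆E16 as the target held 446 members, whose medians were likewise higher in WT (7.13 and 7.02) than in Dido1∆E16 (6.17 and 6.10). These regions were selected by that contrast, so the values are a description.

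Of the 7 Dido1∆E16-only regions, 5 are described here. They were weak, with scores from 12 to 24 in Dido1∆E16 replicate 1 and from 25 to 46 in replicate 2. Those with Dux, Rbm43 and Gm21190 as the nearest start site were annotated downstream of a gene. At Dux and Rbm43 they lay before that start site (-1003 and -11248 bp). The others lay in an exon of 4930572O03Rik and in the 3′ UTR of Mid1, an E3 ubiquitin ligase. At Rbm43 repeats covered 100% of the region, and the other 4 had a near-identical copy elsewhere in the genome. Dux, which encodes a homeobox factor of the early embryo, is itself a tandem array. Without regions that have a copy, 2 of 571 were Dido1∆E16-only.

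Gene lists of haematopoietic regulators had few members in exons, UTRs or downstream. Of 20 stem cell factors, 7 had a region. The 3′ UTR of Meis1, a homeobox factor of stem cells, scored 31 and 106 in WT and had no peak in the Dido1∆E16 libraries. The 5′ UTR of Tal1, a helix-loop-helix factor of stem cells, scored 27 and 61 in WT and 17 in Dido1∆E16 replicate 2 only. Of the 4 regions of this list with a peak in both WT libraries, 3 were WT-only. Here and in the lists that follow, the counts stand beside a WT-only share of 49.3% over all members and 43.1% over all classes, and most are too small to be read against it. Of 22 B-lineage factors, 8 had a region, and 1 of 3 shared by the WT libraries was WT-only. An exon assigned to Pax5, the factor that commits cells to the B lineage, scored 40 and 147 in WT against 60 and 43 in Dido1∆E16. Among myeloid, erythroid and T factors, 1 of 3 shared regions was WT-only. An exon of Klf1, an erythroid factor, scored 22 and 69 in WT against 35 and 18 in Dido1∆E16.

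Of 10 regions of cytokine receptor and signalling genes, 2 had a peak in both WT libraries and neither was WT-only. Exon 20 of Flt3, the receptor of multipotent progenitors, scored 85 and 122 in WT against 44 and 11 in Dido1∆E16, and was not called by the fit described below (adjusted p = 0.477, limma). The 6 regions of H3K4 and DNA methylation enzymes included 1 shared by the WT libraries, downstream of Tet2, which had no Dido1∆E16 peak (scores 20 and 57 in WT). None of 3 shared regions of cell cycle genes was WT-only, and both shared regions of Hox genes were, as were both of ribosomal protein genes. Of 6 shared regions of immediate early genes, 2 were WT-only. The region assigned to Jun, in an exon of its antisense transcript, scored 77 and 224 in WT against 73 and 52 in Dido1∆E16. Only 3 regions had a protocadherin gene as the nearest start site, all in WT replicate 2 alone. Gene families were matched by symbol, so regions assigned to another symbol are not counted in them.

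None of the 8 shared regions of replication-dependent histones was WT-only, and 7 had a peak in all 4 libraries. The 5′ UTR of Hist1h3f scored 63 and 154 in WT against 50 and 30 in Dido1∆E16, and the 3′ UTR of Hist1h1e, a linker histone, 56 and 111 against 44 and 35. These regions lay 206 and 679 bp from the nearest start site. Polycomb genes had 12 regions, 10 of them shared by the WT libraries and 2 WT-only, but 8 of the 12, assigned to Ezh2, did not lie in that gene. They were exons of a transcript between 59.5 and 89.8 kb upstream of Ezh2, in an array with 10 to 14 near-identical copies each. An exon of Phf19, a PRC2 accessory protein, scored 104 and 354 in WT against 133 and 90 in Dido1∆E16. Zinc finger genes had 13 WT-only regions of 40 shared, olfactory receptor genes 13 of 19 and microRNA genes 37 of 64, or 32.5%, 68.4% and 57.8%, against 49.3% over all members and 43.1% over all classes. The olfactory receptor and microRNA counts include V segments, since Olfr1507 and Mir6388 are the nearest start sites there.

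Of the 5 genes with most members, 4 marked antigen receptor loci. Mir6388 had 28 regions, Adam6a and Olfr1507 13 each, Mir7094-2 12 and Gm37013 9. Mir6388, Adam6a and Mir7094-2 stand among the V segments of the heavy chain locus (Igh) on chromosome 12, and Olfr1507 beside those of the T cell receptor alpha locus on chromosome 14. The regions of Gm37013 lay on chromosome 18, where 2 had a peak in both WT libraries and 3 had a Dido1∆E16 peak. By GENCODE, 99 regions lay in V segments, 65 of them in Igh, 20 in Tra, 9 in Trb and 4 in the kappa light chain locus. This group was chosen after its values were seen. Of the 99 regions, 50 had a near-identical copy elsewhere, among them 30 of the 65 in Igh, so that part of their reads cannot be assigned to 1 segment.

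Peaks of the Ighv regions were found mostly in WT libraries, as were those of all members. They were present at 29 of the 65 in WT replicate 1 and at 64 in WT replicate 2, but at 2 in Dido1∆E16 replicate 1 and at 7 in replicate 2. Of all 5823 member regions, 42.8% and 96.1% had a peak in WT replicates 1 and 2, and 17.3% and 22.1% in those of Dido1∆E16. Scores ran from 14 to 81 in WT replicate 1 and from 14 to 208 in WT replicate 2. Of the 28 with a peak in both WT libraries, 20 (71.4%) were WT-only, 7 had a peak in 1 Dido1∆E16 library and 1 in both. The WT-only share was 49.3% over all members and 43.1% over all classes, and no test compares them. Without WT replicate 1 the count was 56 of 64. The region with a peak in every library was Ighv1-58, with scores of 81 and 208 in WT against 38 and 32 in Dido1∆E16. At Ighv1-53 the scores were 47 and 120 in WT replicates 1 and 2, at Ighv1-59 they were 30 and 127 with 17 in Dido1∆E16 replicate 2, and at Ighv1-74 they were 22 and 108 with 43 in Dido1∆E16 replicate 2. None of the 4 kappa V segments had a Dido1∆E16 peak. Trbv1 had peaks in all 4 libraries, with scores of 119 and 257 in WT against 46 and 87 in Dido1∆E16, and Trav6d-7, Trav4n-4 and Trbv12-2 had one in a single Dido1∆E16 library. The number of Ighv regions fell to 3 with a peak in both WT libraries, 2 of them WT-only, when the 13208 best-scoring peaks were used, and to 8 and 5 with HOMER peaks. The promoters of the B cell markers Cd79a and Vpreb1 had no peak in any library, and that of Ms4a1 had one in Dido1∆E16 replicate 1.

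Motif matches divided the locus. The motif of CTCF, searched on both strands over the whole region, was found in 11 of the 19 regions of the other Ighv families, most of which lie nearer to the D and J segments, and in 1 of the 46 of Ighv1 and Ighv8. In those 11 its centre lay 62 to 70 bases past the end of the segment. Over all members 9.72% of the regions held the motif. The heptamer CACAGTG followed by a nonamer (ACAAAAACC with at most 2 mismatches) after 22 to 24 bases was found in 25 of the 46 regions of Ighv1 and Ighv8 and in 8 of the 19 others, 1 base past the end of the segment. The heptamer alone was in 14.5% of all members and 47 of the 65 Ighv regions. These regions were chosen as V segments, which end in such a signal, so a higher share was given by the choice. Of the 11 CTCF-bearing segments near D and J, 1 (Ighv2-6) had a peak in both WT libraries, with scores of 31 and 34, and none had a Dido1∆E16 peak.

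**Figure D4:**
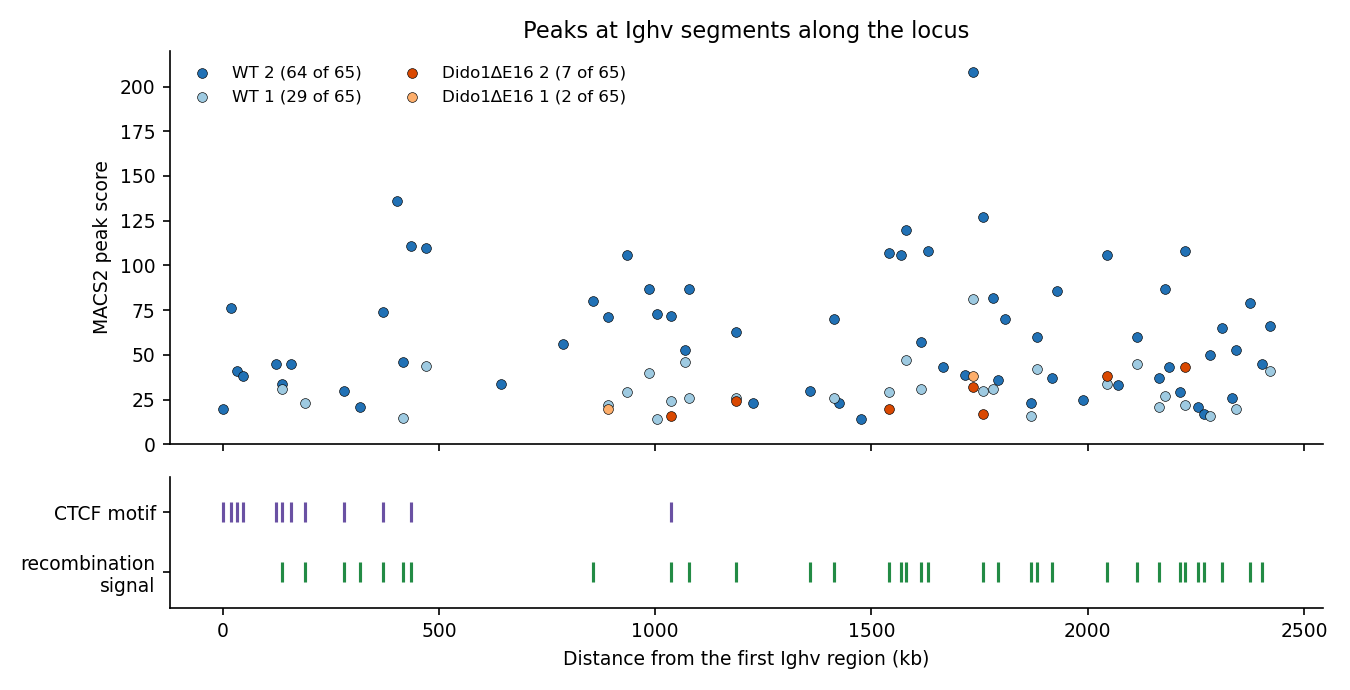
MACS2 scores of the peaks at the 65 Ighv regions in each library (top) by the distance in kb from the region nearest to the D and J segments, with regions that hold a CTCF match or a recombination signal (bottom). WT peaks ran along the whole locus, the 9 Dido1∆E16 peaks lay in the Ighv1 part, and 11 of the 12 CTCF matches lay in the part nearest to D and J.

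Base composition followed the start sites. The median GC content of the 200 bp at the centre of the region was 61.0% in 5′ UTRs, 54.5% in exons, 52.5% in 3′ UTRs and 50.5% downstream, against 65.0% in promoters and 49.0% in introns. The ratio of observed to expected CpG was 0.635 in 5′ UTRs and 0.223 downstream. Members with a peak in all 4 libraries had a GC content of 60.5% and a CpG ratio of 0.663, and WT-only ones had 52.5% and 0.337. The CTCF motif was in 6.46% of all members in this window and in 5.07% of all regions, and its share ran from 2.87% in 5′ UTRs to 9.43% downstream. Exact matches on both strands were also counted. The PU.1 letters GAGGAAGT were in 5.19% of members and 5.70% of all regions, and the RUNX letters TGTGGTT in 7.28% and 8.30%. The GATA letters AGATAAG were in 2.28% and 2.91%. The letters of other ETS factors, CCGGAAGT, which share GGAAGT with PU.1, were in 0.653% and 1.27%. Those of SP/KLF factors, GGGGCGGGG, were in 2.70% and 3.54%. NRF1 (GCGCATGCG, 0.429% and 0.477%) and YY1 (AAGATGGCG, 0.309% and 0.964%) were the rarest.

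Members with and without a Dido1∆E16 peak differed in these matches. PU.1, an ETS factor of myeloid and lymphoid progenitors, had its match in 7.06% of the WT-only members and 2.27% of those with a peak in all 4 libraries. CTCF had 6.64% and 3.84%, and RUNX 8.596% and 5.06%. The matches of ETS (0.255% and 1.92%), NRF1 (0.170% and 1.22%) and SP/KLF factors (2.55% and 5.76%) had the opposite order. Seen from the motif, 64.5% of the 121 WT-shared members with a CTCF match were WT-only, against 48.5% of the other 2263. In introns and intergenic regions with a CTCF match the share was 82.3% and 78.5%. The matches also differed with distance to a start site. Within 1 kb and beyond it, PU.1 was in 2.31% and 5.75% of members, CTCF in 2.00% and 7.33% and RUNX in 2.94% and 8.13%. SP/KLF had 4.31% and 2.38%. Distance and peak strength were not held fixed in the comparisons by presence, so the part of the motif itself was not tested. A match is a description of the letters and not of binding.

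Scores were compared by a fit in the 573 members with a peak in all 4 libraries. Log2 scores were quantile-normalised over the 9104 such regions of all classes and fitted with limma. The fit called 3 members at an adjusted p under 0.05, 2 higher and 1 lower in Dido1∆E16, and over all classes 0.417% were called higher and 0.022% lower. The 3′ UTR region of Slc30a4, a zinc transporter, scored 27 and 32 in WT against 57 and 118 in Dido1∆E16, a log2 difference of 2.34 ± 0.48 (SE, limma adjusted p = 0.0267). A region downstream of Pisd, inside a pseudogene, scored 29 and 112 against 119 and 142, a difference of 2.09 ± 0.37 (limma adjusted p = 0.00786). The 5′ UTR region of Golim4, a Golgi membrane protein, scored 123 and 264 in WT against 12 and 19 in Dido1∆E16, a difference of -2.61 ± 0.44 (limma adjusted p = 0.00775). At Golim4 the WT peaks were 1339 and 1430 bp wide and reached over the promoter, whereas each Dido1∆E16 library had a separate promoter peak, of score 163 and 123, beside the small one. The 3 were named after their values were seen. None was called in the fit without a trend or when any library was left out, where a lone library is taken to vary like the other genotype. In 115 of the 573 regions only Dido1∆E16 peaks carried the annotation of these classes. The median log2 difference was -0.068 in 5′ UTRs, -0.078 in 3′ UTRs, 0.021 in exons and -0.19 downstream, against -0.012 over all classes, and at an unadjusted p under 0.05 there were 57 members (9.95%) and 779 regions of all classes (8.56%).

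**Figure D5:**
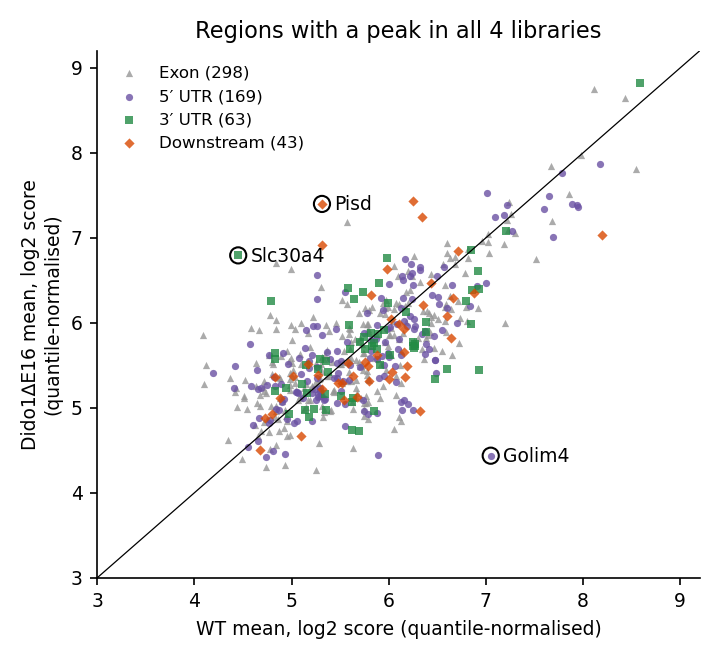
Mean quantile-normalised log2 score of the 2 Dido1∆E16 libraries against that of the 2 WT libraries for the 573 members with a peak in all 4 libraries, by class. The line marks equal scores, and circles mark the 3 regions called by limma, Slc30a4 and Pisd above the line and Golim4 below it.

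In RNA-seq of pre-B cells, a later stage of the B lineage, the genes that hold the regions ranged widely in level. Median TPM of genes whose exons hold a member with a peak in all 4 libraries was 9.03 and 7.11 in WT against 9.42 and 8.12 in Dido1∆E16 (432 genes), and for WT-only members it was 0.115 and 0.0453 against 0.890 and 0.593 (892 genes). Over all 25657 genes the medians were 0 in WT, and 0.113 (replicate 1) and 0 (replicate 2) in Dido1∆E16. Of all genes, 43.2% and 42.4% in WT against 46.5% and 44.95% in Dido1∆E16 had a TPM above 1. The medians of all members were also higher in Dido1∆E16, at 0.660 and 0.517 in WT against 2.07 and 1.77. For members with a peak in both WT libraries and 1 Dido1∆E16 library they were 1.84 and 1.61 against 4.38 and 3.19. In the downstream class the direction was mixed, with 5.41 and 5.47 against 6.30 and 2.40. Higher values in Dido1∆E16 were therefore not particular to WT-only members. By class the medians in WT replicates 1 and 2 were 3.03 and 2.68 for 5′ UTRs, 4.36 and 3.87 for 3′ UTRs, and 0.0179 and 0 for exons. For the downstream class they were 5.41 and 5.47, over 53 genes. Genes with regions of the UTR or downstream classes thus had higher medians than those of the exon class. That class includes V segments and exons of transcripts without a gene number, and no test was made over genes.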

How the data were processed

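LSK Omni-ATAC-seq and pre-B cell RNA-seq, each with 2 libraries per genotype, were used, and libraries were grouped by the labels. The authors aligned reads to mm10 (BWA 0.7.15), ran MACS2 and HOMER on single libraries, and annotated them with ChIPseeker, with promoters from 1 kb before to 200 bp after a start site. The deposited MACS2 files give a score for each peak, without a stated definition, and widths and distances in bp. The authors' differential lists give log2 tags for each library, scaled to a common total, and their fold changes and p-values were not used, nor were their edgeR tables, which hold fold changes and p-values. The deposited StringTie files give TPM per transcript, summed here by GENCODE vM21 gene, with a match of 50% or more of a transcript's exonic bases (87.7% of transcripts matched).

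Peaks of the autosomes, X and Y were merged from 1 bp of overlap. A merged region took the class of most of its peaks, and presence was an overlap with any MACS2 peak. Shares were compared by exact two-sided permutation tests and scores by limma 3.58.1 (R 4.3.3, trend, Benjamini-Hochberg over all classes). Sequences come from RefSeq GRCm38.p6, copies from minimap2 2.31, and tables and figures from matplotlib 3.10.9, SciPy 1.17.1, pandas 2.3.3 and NumPy 2.4.6 under Python 3.11.15. The overlap, fit and search steps were tested on simulated data. Named regions were the 3 with the highest score percentiles in each class among those in all 4 libraries and among the WT-only ones, all Dido1∆E16-only regions, the 5 genes with most regions, up to 4 genes of each list, and Dido1. The alternatives were HOMER peaks, equal numbers of best-scoring peaks, covered bases, other overlap and merging rules, other normalisations, the replicate block and leaving out each library. The members, lists and tests were chosen with earlier results of these data known. V segments and the recombination signal were added after their values were seen. Some genes that these rules or the marker lists name are not reported here.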

Additional observations from a re-analysis of the deposited data

How the results depend on the processing

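The share of exon, UTR and downstream peaks was lower in Dido1∆E16 than in WT libraries by 1.32 to 2.48 points when any library was left out and likewise lower over covered bases, but the difference was 0.435 points with HOMER peaks and 0.220 points with equal numbers of best-scoring peaks, in the other direction. WT-only regions numbered 1175 in the main count, 725 with HOMER peaks, 98 with equal numbers and 1279 to 4052 without 1 library (4052 without WT replicate 1). Dido1∆E16-only regions numbered 7, with 96 under equal numbers, 37 when presence needed a peak of the same classes, 2 without copies, an alternative added after seeing the data, and 7 to 95 without 1 library (56 without WT replicate 2, 95 and 32 without Dido1∆E16 replicates 1 and 2). By HOMER peaks and by equal numbers, the WT-only share was 23.4% and 4.69% in 5′ UTRs, 34.6% and 16.3% in 3′ UTRs, 30.2% and 19.4% in exons and 38.1% and 26.8% downstream. By distance it was 21.5% and 2.68% under 1 kb, 26.3% and 11.1% from 1 to 5 kb, 32.5% and 19.4% from 5 to 20 kb and 36.8% and 23.1% beyond 20 kb. The numbers of peaks entering differ by construction, and no other cause was tested. Limma called 3 members, 5 with median centring, 0 without a trend, 0 for widths and 0 without any 1 library (at an unadjusted p under 0.05, 61, 63 and 20 to 104). With the replicate block it called 11. The labels share replicate numbers but say nothing of a pairing, and the correlation of deviations between libraries of the same number was -0.057. A window of 400 bp raised the CTCF share of members to 8.52%, PU.1 to 7.81% and RUNX to 12.004%. The shallowest library, WT replicate 1, limits which regions count as shared by WT.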
